A study of Arabidopsis thaliana with 45 samples.

Results

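The cytosolic ribosome translates the messenger RNA of the plant cell outside its organelles, and 56 loci that encode its proteins in Arabidopsis thaliana were followed here across whole seeds, out of 27587 loci in the table. The 56 loci were taken from a list chosen with earlier results of these data known, and they encode 26 proteins. Of these loci, 22 belong to the small subunit and 34 to the large subunit, and 22 of the 26 proteins are represented by more than 1 locus (paralogues). RNA was sequenced from 45 libraries of Col0 seeds in 16 groups: 4 genotypes, each taken dry or after 6 h of imbibition in 10 mM KNO3, in 8 µM KSCN (potassium thiocyanate) or in water. The genotypes carry the labels cyp (cyp79B2 cyp79B3), myb (myb28 myb29), qko (all 4 of these genes) and WT. These genes belong to the synthesis of glucosinolates, sulphur-containing defence compounds of the cabbage order. CYP79B2 and CYP79B3 are enzymes of the indole branch, and MYB28 and MYB29 are regulators of the aliphatic branch. The question set by the design is how nitrogen compounds act on imbibed seeds that are impaired in glucosinolate synthesis. There were 3 libraries in 13 of the groups, and 2 in the remaining 3: dry myb seeds, myb seeds in KNO3 and cyp seeds in KSCN. Whether libraries of a group stem from different plants or seed lots is not stated in the labels.

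A ribosome is built from a small subunit that decodes the messenger and a large subunit that joins the amino acids, and nearly every protein is present in a single copy. In Arabidopsis each protein is encoded by a small family of paralogues, and several of these have been tied to embryo or leaf development. Dry seeds store messenger RNA, and new ribosomal protein transcripts are among the early products of imbibition. RPS6, a protein of the small subunit, is phosphorylated by S6 kinases downstream of the kinase TOR.

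Each library held between 18097331 and 22910834 estimated counts. Of the 56 loci, 55 passed the filter on low counts. The exception was AT3G51190, a paralogue of RPL8, with at most 7 counts in any library. The genes named in the genotype labels gave few counts. CYP79B2 had 6 to 31 counts per library labelled cyp, 0 to 5 in those labelled qko and 0 to 3 in those labelled WT. CYP79B3 had 10 to 124 counts in libraries labelled cyp, 3 to 38 in qko and 0 to 5 in WT. MYB28 was at 0 in every library, and MYB29 had 0 to 6 counts in myb, 0 to 14 in qko and 0 in WT. Every library labelled cyp thus had more counts of CYP79B2 and of CYP79B3 than any labelled WT. Over all treatments, the ranges of both genes in qko, and of MYB29 in myb and qko, overlapped those of WT and reached higher. The labels could not be checked from these counts, so each direction below is between libraries as labelled. Some libraries stood apart from others of their group. Imbibed qko replicate 7 gave a mean chi-square per locus of 62.5 to 80.8 against qko replicates 4 and 6, which differed from each other by 7.03 to 12.4. Counts of members called in imbibed qko seeds, and the qko medians for the salts, are also given without it. In the same way, cyp replicates 6 and 8 in KNO3 differed by 97.5.

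Sequences of the 250 bases upstream of the transcription start show how paralogues of 1 protein differ in a motif known from ribosomal protein promoters. They are from RefSeq's TAIR10.1, and the build behind the counts is not given in the sources used here. The promoters chosen are those of both RPS6 loci and both RPL24 loci, paralogue pairs described in the results below. Capitals mark the site II motif (TGGGCC or TGGGCT, on either strand). All 4 genes lie on the minus strand, and each sequence reads 5′ to 3′ in the direction of transcription.
RPS6A, chr4:15347805-15348054: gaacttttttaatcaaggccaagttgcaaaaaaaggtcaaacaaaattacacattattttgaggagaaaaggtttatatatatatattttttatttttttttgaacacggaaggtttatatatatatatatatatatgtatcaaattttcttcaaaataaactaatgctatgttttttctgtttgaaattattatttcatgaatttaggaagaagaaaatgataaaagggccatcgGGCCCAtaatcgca
RPS6B, chr5:3260255-3260504: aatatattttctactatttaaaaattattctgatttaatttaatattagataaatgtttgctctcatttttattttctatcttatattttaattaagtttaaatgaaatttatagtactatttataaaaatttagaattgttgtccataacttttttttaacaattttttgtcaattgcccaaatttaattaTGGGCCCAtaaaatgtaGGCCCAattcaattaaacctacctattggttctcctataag
RPL24A, chr2:15352014-15352263: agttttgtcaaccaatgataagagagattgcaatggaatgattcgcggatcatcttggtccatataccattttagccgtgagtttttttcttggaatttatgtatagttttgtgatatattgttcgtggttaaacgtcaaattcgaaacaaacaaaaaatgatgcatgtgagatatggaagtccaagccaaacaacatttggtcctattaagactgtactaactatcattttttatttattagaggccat
RPL24B, chr3:19662026-19662275: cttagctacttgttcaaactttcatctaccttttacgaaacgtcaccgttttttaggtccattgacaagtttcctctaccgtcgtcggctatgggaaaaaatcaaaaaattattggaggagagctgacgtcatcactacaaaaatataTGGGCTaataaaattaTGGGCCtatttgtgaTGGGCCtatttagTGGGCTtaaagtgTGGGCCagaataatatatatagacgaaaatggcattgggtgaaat
RPS6A had 1 site II match and RPS6B 3, of which 2 overlap. RPL24B (STV1) had 5 matches and RPL24A had none. Over all members, 38 of 56 promoters (67.9%) held a site II motif, against 71.0% of 131 other cytosolic ribosomal protein loci and 19.2% of all 27390 windows of this length. A telo-box (AAACCCTA, either strand) was found in 17.9% of the members, 19.1% of the other ribosomal protein loci and 4.49% of all windows. The TATA box (TATAAA, either strand) was found in 51.8% of the members and 47.3% of all windows. A match is a description of these letters and not a site shown to be bound.

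Levels between genes were compared per kilobase of transcript, as CPM (counts scaled to a common library size by TMM, edgeR's trimmed mean of M-values) per kb averaged over the 45 libraries. High levels were reached by AT3G09200 (RPP0, at the base of the ribosomal stalk) with 441, RPSAA with 430.3, AT3G53870 (RPS3, at the entry of the messenger) with 399.8 and RPL10A with 395 CPM per kb. Low levels were those of RPL3B with 12.4, RPL10B with 10.9 and AT3G51190 with 0.0536 CPM per kb. Paralogues of 1 protein were thus found at both ends of this order. The RPL10 loci, which encode a large subunit protein at the subunit joining site, ranked RPL10A with 395, RPL10C with 374 and RPL10B with 10.9 CPM per kb.

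After 6 h in water most ribosomal protein loci were higher than in dry seeds of the same genotype, with the highest median change in seeds labelled cyp and the lowest in qko. In cyp all 55 tested members were higher in imbibed than in dry seeds (edgeR's quasi-likelihood test, Benjamini-Hochberg adjusted p under 0.05), where 40.8% of all 18066 tested loci were higher and 38.9% lower (79.7% in either direction). The median log2 fold change of the members in cyp was 1.67, against 0.04 over all loci. In myb 49 were higher and none lower, with a median of 0.84, where 34.8% of all loci were higher and 31.3% lower (66.2%). In qko 32 were higher and 1 lower, with a median of 0.43, where 36.9% of all loci were higher and 32.2% lower (69.0%). Without qko replicate 7 in any treatment, 30 members were called in qko. In WT 53 were higher and none lower, with a median of 0.96, against 0.08 over all loci, where 37.1% of all loci were higher and 33.5% lower (70.6%). Because of the TMM scaling, a fold change is relative to the other transcripts of the library. With libraries scaled to their totals instead, the median of all loci in WT was 0.83 and that of the members 1.72 on the log2 scale. In qko the median of all loci was then 0.81, against 0.09 with TMM, and 54 members were called higher and none lower.

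Imbibed and dry libraries separated locus by locus. In cyp every imbibed library lay above every dry one for 56 of the 56 loci, where this holds for 43.1% of all tested loci. The same count was 53 in myb (41.1% of all loci), 43 in qko (36.8%) and 55 in WT (41.0%). In bulk RNA from whole seeds, more cells of a type and more RNA per cell cannot be told apart. The summed level of 6 seed storage and oil body transcripts, none of them at 0, moved the other way. It was 11480 to 18200 CPM in imbibed and 109800 to 116900 CPM in dry cyp seeds, and 53830 to 58870 CPM in imbibed and 210000 to 225200 CPM in dry myb seeds. In qko it was 41150 to 51080 CPM in imbibed and 203200 to 230500 CPM in dry seeds, and in WT 80680 to 83390 CPM in imbibed and 237600 to 271500 CPM in dry seeds. The summed level of 4 photosynthetic markers was higher in imbibed than in dry cyp seeds, at 86.7 to 135 CPM against 41.8 to 46.5 CPM, and lower in the other genotypes. It was 12.4 to 16.8 CPM against 18.6 to 28.1 CPM in myb, 11.15 to 21.3 CPM against 30.2 to 34.1 CPM in qko and 13.0 to 17.1 CPM against 29.7 to 44.4 CPM in WT, imbibed before dry. The pollen marker VGD1 was at most 0.0429 CPM in any library imbibed in water, against 5.83 to 143 CPM in dry ones. The summed level of 4 seed coat markers was 14.2 to 17.1 CPM in imbibed and 10.3 to 12.2 CPM in dry qko, and 7.22 to 8.89 CPM in imbibed and 6.44 to 7.03 CPM in dry WT, while imbibed and dry libraries overlapped in cyp and myb. The part of these markers in the result was not tested.

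**Figure D1:**
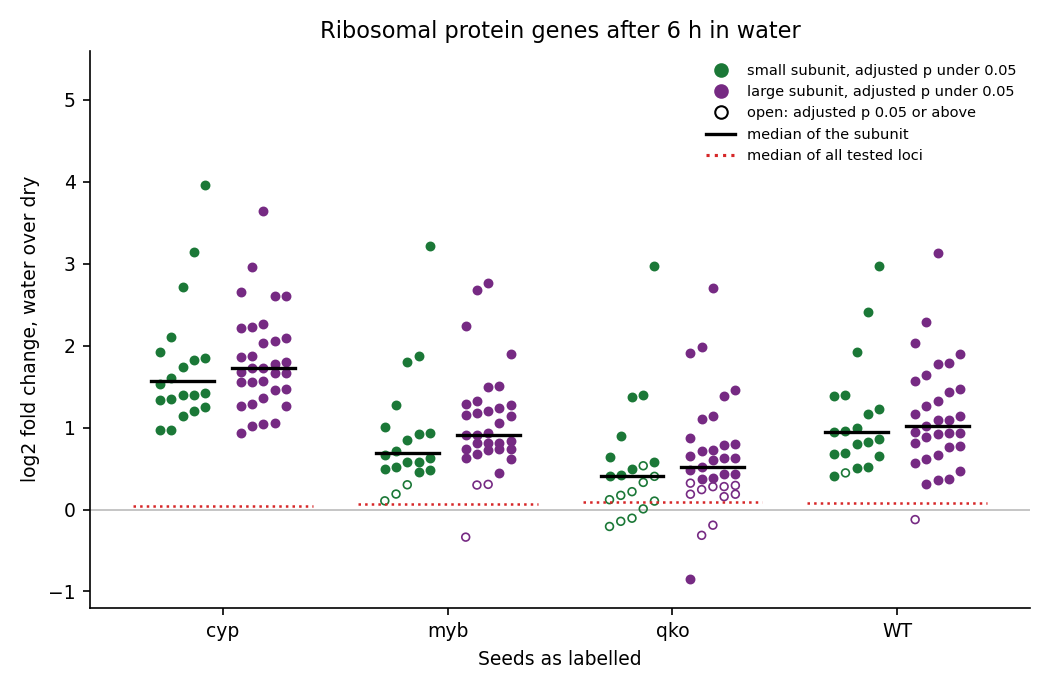
Log2 fold change, water over dry (vertical axis), of each tested ribosomal protein locus in seeds labelled cyp, myb, qko and WT (horizontal axis). Green points are small subunit loci and purple points large subunit loci, filled where the adjusted p was under 0.05. Black lines are subunit medians and red dotted lines medians of all tested loci. Loci of 1 protein are not drawn. Subunit medians lie at 1.57 and 1.72 in cyp and at 0.41 and 0.52 in qko.

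RPS6, the S6 kinase substrate of the small subunit, was higher after imbibition at both of its loci in every genotype. RPS6A had 754, 605 and 781 CPM in the 3 imbibed cyp libraries, against 79.6, 81.05 and 80.7 CPM in the dry ones. It had 348, 411 and 369 CPM in imbibed myb seeds, against 101 and 104 CPM in dry ones. In qko it had 244, 276 and 244 CPM after imbibition, against 99.55, 89.0 and 101 CPM in dry seeds. All imbibed libraries of these genotypes lay above the dry ones, and cyp reached the highest level. In WT, RPS6A had 348.5, 389.7 and 281 CPM in imbibed seeds, against 64.45, 62.95 and 64.7 CPM in dry seeds. The log2 fold change was 3.15 ± 0.16 in cyp (SE; adjusted p = 3.3e-19, edgeR), 1.87 ± 0.18 in myb, 1.40 ± 0.15 in qko and 2.41 ± 0.16 in WT (adjusted p = 1.1e-15, edgeR). RPS6B, the paralogue with the higher level in dry seeds, rose less. It had 682, 540 and 675 CPM in imbibed cyp, against 179.6, 173.7 and 180.1 CPM in dry cyp. It had 281, 339.6 and 288 CPM in imbibed qko, against 199.8, 201 and 205.5 CPM in dry qko. In WT the 3 imbibed libraries had 397, 460.2 and 342 CPM, against 149, 146 and 165 CPM in the dry ones. Its log2 fold change was 1.83 ± 0.14 in cyp, 0.93 ± 0.16 in myb, 0.58 ± 0.14 in qko and 1.38 ± 0.14 in WT, all past the threshold.

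Among the other small subunit loci, RPSAb had high fold changes in every genotype. It is the minor paralogue of RPSa, a small subunit protein. RPSAb had 87.3, 81.7 and 94.8 CPM in imbibed cyp, against 5.57, 5.16 and 6.21 CPM in dry cyp. In qko it had 70.5, 69.1 and 66.7 CPM, against 9.14, 8.31 and 8.76 CPM in dry seeds. In WT it had 48.8, 55.6 and 44.4 CPM, against 5.79, 7.03 and 6.05 CPM in dry seeds. The groups were far apart in each genotype, and the log2 fold change was 3.96 ± 0.13 in cyp, 3.22 ± 0.15 in myb, 2.98 ± 0.13 in qko and 2.98 ± 0.13 in WT. RPSAA, the major paralogue, changed by 1.25, 0.46, 0.01 and 0.51 in the same order of genotypes, and the qko value did not pass the test.

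RPS21, a small protein of the same subunit, showed a wide gap between its 2 loci. AT3G53890 changed by 2.71 ± 0.23 in cyp, 1.80 ± 0.27 in myb, 1.37 ± 0.23 in qko and 1.93 ± 0.24 in WT, all past the threshold. AT5G27700 changed by 1.15 ± 0.24 in cyp and did not pass the test at 0.30 in myb, 0.10 in qko and 0.45 in WT. It was called higher in all 3 with libraries scaled to their totals, at 0.98 in myb, 0.83 in qko and 1.202 in WT. Its qko libraries in water had 86.3, 88.1 and 163 CPM, the last being replicate 7. RPS15A, which has 1 locus in the list, had a log2 fold change of 1.74 in cyp, 0.58 in myb and 0.999 in WT, all called, and of -0.14 ± 0.18 in qko, which was not called and turned to 0.58 with libraries scaled to their totals.

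In the large subunit RPL10B, RPL3B and the RPL9 locus AT4G10450 had the highest fold changes in myb, qko and WT. RPL10B is the lowest of the RPL10 loci, and its log2 fold change was 3.65 ± 0.27 in cyp, 2.68 ± 0.33 in myb, 1.92 ± 0.29 in qko and 3.13 ± 0.31 in WT. RPL3B is the minor paralogue of RPL3, which in yeast lies near the peptidyl transferase centre. It had 14.2, 17.4 and 11.7 CPM in imbibed qko, against 1.81, 1.99 and 2.83 CPM in dry qko, and 20.3, 20.1 and 15.6 CPM in imbibed WT, against 5.65, 3.98 and 4.08 CPM in dry WT. Its change was 2.61 in cyp, 2.77 in myb, 2.70 in qko and 2.03 in WT. RPL3A, the major paralogue, changed by 1.67 in cyp and 0.95 in WT, and missed the threshold at 0.30 in myb and -0.19 in qko. With libraries scaled to their totals RPL3A was called higher in both, at 0.98 in myb and 0.54 in qko. AT4G10450 changed by 2.96, 2.25, 1.98 and 2.29 in cyp, myb, qko and WT, all called. The other RPL9 loci, AT1G33120 and PGY2 (known for leaf shape when mutated), have coding sequences that are 99.15% identical, so the split of counts between them is uncertain.

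RPL24, which in Arabidopsis is needed for reinitiation of translation after short upstream reading frames, again differed by paralogue. RPL24A had 192, 133 and 208 CPM in imbibed cyp, against 28.4, 27.2 and 29.2 CPM in dry cyp. In WT it had 79.95, 97.9 and 61.8 CPM after imbibition, against 21.7, 23.1 and 24.7 CPM in dry seeds. Imbibed and dry libraries did not overlap, and the log2 fold change was 2.65 ± 0.23 in cyp, 1.90 ± 0.27 in myb, 1.38 ± 0.23 in qko and 1.79 ± 0.23 in WT. RPL24B, with 5 site II matches in its promoter, changed by 1.46 ± 0.15 in cyp, 0.81 ± 0.17 in myb and 0.81 ± 0.15 in WT, all called, and by 0.29 ± 0.15 in qko, which was not.

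RPL16A was the 1 member called lower after imbibition. Despite its name it encodes RPL11, which binds the central protuberance of the large subunit together with RPL5. It had 12.4, 17.5 and 23.0 CPM in imbibed qko, against 32.1, 35.5 and 27.7 CPM in dry qko. Its log2 fold change in qko was -0.85 ± 0.23 (adjusted p = 0.0011, edgeR), and it was -1.198 without replicate 7 in any treatment. With libraries scaled to their totals the value in qko was -0.12 with an adjusted p of 0.64 (edgeR), so the call depends on the scaling. In cyp it was higher by 1.02 ± 0.23, and at -0.34 in myb and -0.12 in WT it did not pass the test. The RPL11 paralogues AT5G45775 and AT3G58700 were higher in qko, by 0.72 ± 0.17 and 0.38 ± 0.16.

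The medians of the subunits lay close together in each genotype. In cyp the median log2 fold change was 1.57 over 22 small subunit loci and 1.72 over 33 large subunit loci. The medians were 0.69 and 0.91 in myb, 0.41 and 0.52 in qko, and 0.95 and 1.02 in WT, small before large. The loci called higher were 22 of 22 and 33 of 33 in cyp, 19 and 30 in myb, 10 and 22 in qko, and 21 and 32 in WT. The ratio of summed small to summed large subunit CPM was 0.648 ± 0.00605 in imbibed cyp, 0.644 ± 0.00723 in myb, 0.618 ± 0.0244 in qko and 0.646 ± 0.00456 in WT (SD, n = 3). In dry seeds the ratio spanned 0.646 to 0.657 in cyp, 0.720 to 0.745 in myb, 0.6996 to 0.714 in qko and 0.621 to 0.638 in WT. Dry cyp, myb and qko libraries thus all lay above the dry WT libraries, and the imbibed ones, at 0.643 to 0.654 in cyp, 0.640 to 0.652 in myb and 0.5995 to 0.645 in qko, overlapped the WT range of 0.642 to 0.651. Within a genotype, the ratios of imbibed libraries lay below those of dry ones in myb and qko, lay above them in WT and overlapped them in cyp. In imbibed qko, replicate 7 had 0.645 and the others 0.5995 and 0.608. The large subunit sums include RPL10C, which was higher after imbibition by a log2 fold change of 1.46 in qko and 1.32 in myb. In imbibed seeds RPL10C was above WT by 1.57 in qko and 0.89 in myb. The ratio without this locus was not computed, so it may not reflect the other large subunit loci. Together the 56 loci took 2.92% ± 0.40 of all counts in imbibed and 0.566% ± 0.021 in dry cyp seeds (SD, n = 3). The share was 1.57% ± 0.096 and 0.557% ± 0.0040 in myb, with 2 dry libraries, 1.14% ± 0.063 and 0.497% ± 0.019 in qko, and 1.35% ± 0.17 and 0.429% ± 0.015 in WT, imbibed before dry.

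Ribosomal protein loci outside the list were counted in the same way. Of 130 other cytosolic ribosomal protein loci tested, 129 were higher after imbibition in cyp, with a median of 1.92. The counts were 116 in myb with a median of 1.07, 94 higher and 3 lower in qko with a median of 0.67, and 119 in WT with a median of 1.14. In a list of 6 TOR and S6 kinase genes, 1 was called higher and 2 lower in cyp, 2 and 2 in myb, 2 and 2 in qko, and 1 and 3 in WT. Of all tested loci, 79.7%, 66.2%, 69.0% and 70.6% were called in either direction in the same order, shares near those of the list or above. S6K1 was called higher in each genotype, by 1.35 in cyp, 0.74 in myb, 0.68 in qko and 1.30 in WT. S6K2, its close relative, was called lower in each, with log2 fold changes of -3.07, -1.57, -1.47 and -1.56 in the same order. RAPTOR1B, a partner of TOR, was lower in cyp (-0.65), myb (-0.58) and WT (-0.68), and TOR itself was not called in any of them.

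Paralogues of 1 protein took different shares of its transcripts in imbibed and in dry seeds. The share of each paralogue was computed per kb among the listed paralogues of its protein, and water and dry labels were permuted within genotypes (exact two-sided permutation test, 80000 permutations, smallest possible p 1.25e-05). Among 37 shares, with proteins of 2 loci counted once, 31 had an unadjusted p under 0.05, and 26 moved the same way in every genotype. The shares of 1 protein add up to its whole, so with more than 2 loci the same shift can enter these counts more than once. Shares within other gene families were not computed, and 66.2% to 79.7% of all loci were called between imbibed and dry seeds. The counts therefore do not set these paralogues apart from those of other families. RPS6B made up 46.55%, 53.1%, 52.95% and 53.6% of RPS6 in imbibed cyp, myb, qko and WT, against 68.5%, 68.5%, 67.3% and 70.1% in dry seeds of the same genotypes. The overall shift was -17.0 percentage points (exact permutation p = 1.25e-05), with no overlap between imbibed and dry libraries of any genotype. AT5G27700 fell to 57.6%, 65.4%, 65.8% and 64.2% of RPS21, against 80.0%, 84.1%, 82.8% and 83.1% in dry seeds, a shift of -19.3 points. RPL24B fell to 71.1%, 77.2%, 80.5% and 77.2% of RPL24, against 84.8%, 87.8%, 89.8% and 86.8% in dry seeds, a shift of -10.8 points. AT3G09630 lost 13.6 points of RPL4, a protein that lines the exit tunnel, and AT5G45775 gained 10.8 points of RPL11. Each of these shifts was at the smallest p the permutations can give, as were 19 of the 37. The shares of RPL38 (p = 0.969) and of RPL5A (p = 0.0741, both exact permutation tests) are examples that did not pass.

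**Figure D2:**
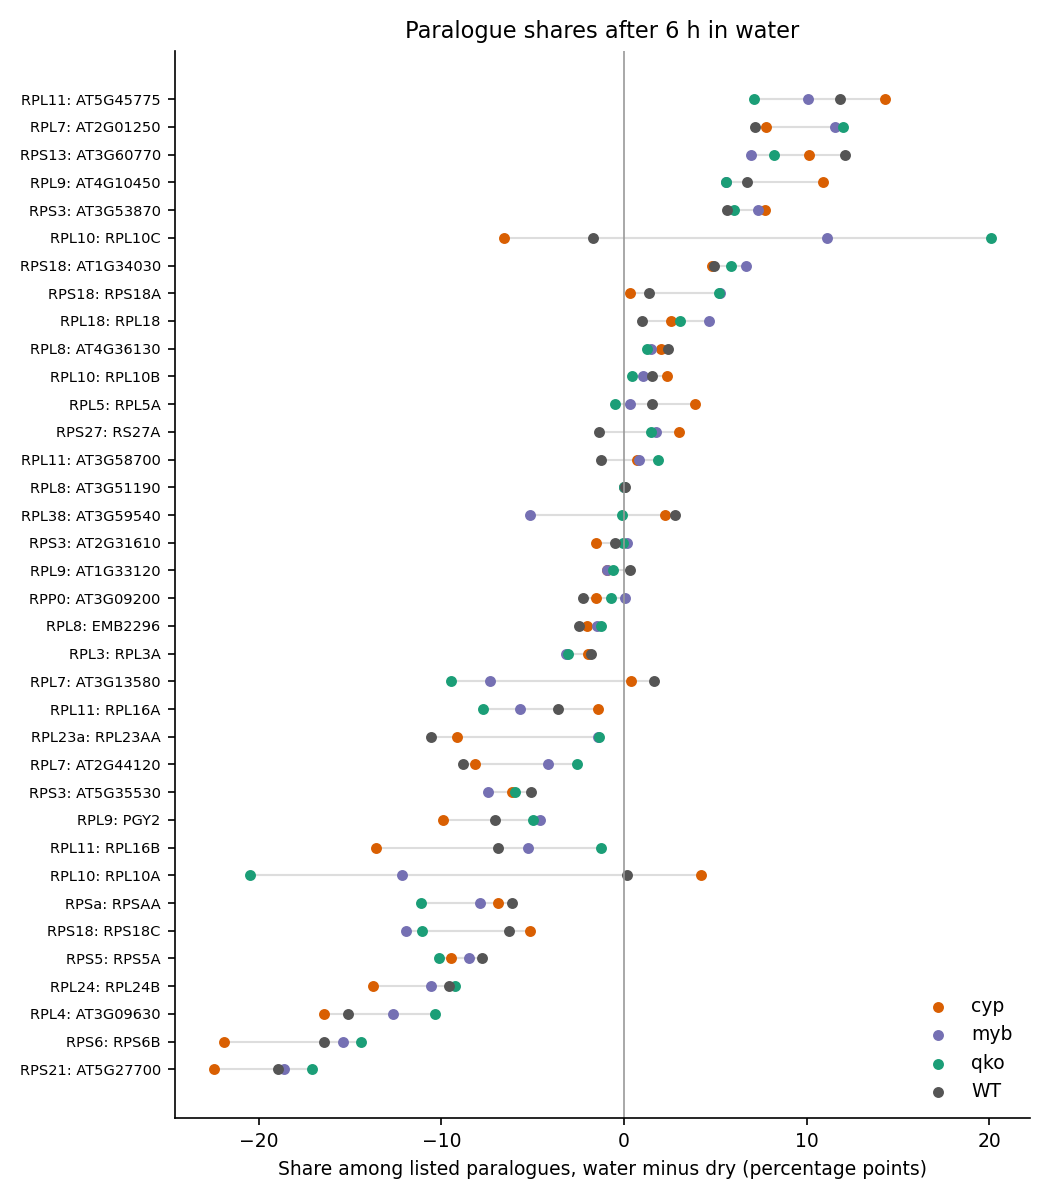
Change in each paralogue's share of its protein's transcripts, water minus dry, in percentage points (horizontal axis), with 1 row per paralogue and 1 point per genotype (orange cyp, purple myb, green qko, grey WT). Each share is per kb among the listed paralogues, and proteins with 2 loci have 1 row (1 protein is not drawn). AT5G27700, RPS6B and AT3G09630 lie far to the left in all genotypes, while RPL10C and RPL10A spread to both sides of 0.

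In RPL10 the shares moved to different sides in different genotypes, a difference that was not tested on the shares themselves. RPL10C changed its share by -6.57 points in cyp, 11.1 in myb, 20.1 in qko and -1.70 in WT. RPL10A changed by 4.2, -12.1, -20.5 and 0.16 points in the same order. Averaged over genotypes the shift was 5.72 points for RPL10C (exact permutation p = 0.0435) and -7.07 points for RPL10A (exact permutation p = 0.0146), and that of RPL10C no longer passed 0.05 without any 1 of 14 libraries. RPL10C made up 69.9% ± 3.5 of RPL10 in imbibed qko, 51.7% ± 2.1 in imbibed myb and 24.5% ± 1.6 in imbibed cyp, against 38.8% ± 2.4 in imbibed WT (SD, n = 3). Its level was 826, 769 and 1081 CPM in imbibed qko, 583, 571 and 513 CPM in imbibed myb and 269.5, 247 and 293 CPM in imbibed cyp, against 304, 292 and 306 CPM in imbibed WT. The qko and myb libraries lay above all imbibed WT libraries, while the cyp libraries overlapped those of WT. The log2 fold change of RPL10C over WT, the highest of the 55 members in both qko and myb, was 1.57 ± 0.13 in qko (adjusted p = 1.9e-12, edgeR; 1.399 without replicate 7 in any treatment) and 0.89 ± 0.13 in myb (adjusted p = 9.8e-07, edgeR), and at -0.16 ± 0.13 in cyp it did not pass the test. RPL10A, which in Arabidopsis takes part in antiviral signalling as a partner of the receptor kinase NIK1, had 344, 361 and 361.5 CPM in imbibed qko, against 467, 468 and 407 CPM in imbibed WT. Its log2 fold change in qko was -0.33 ± 0.13 (adjusted p = 0.034, edgeR), so 2 paralogues of 1 protein were called in opposite directions. In dry seeds RPL10C had 140.2, 143 and 141 CPM in cyp, 222 and 223 CPM in myb and 325, 302 and 344 CPM in qko, against 232, 232.5 and 263 CPM in WT. It was lower in dry cyp (-0.78 ± 0.13) and higher in dry qko (0.42 ± 0.13), both called.

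**Figure D3:**
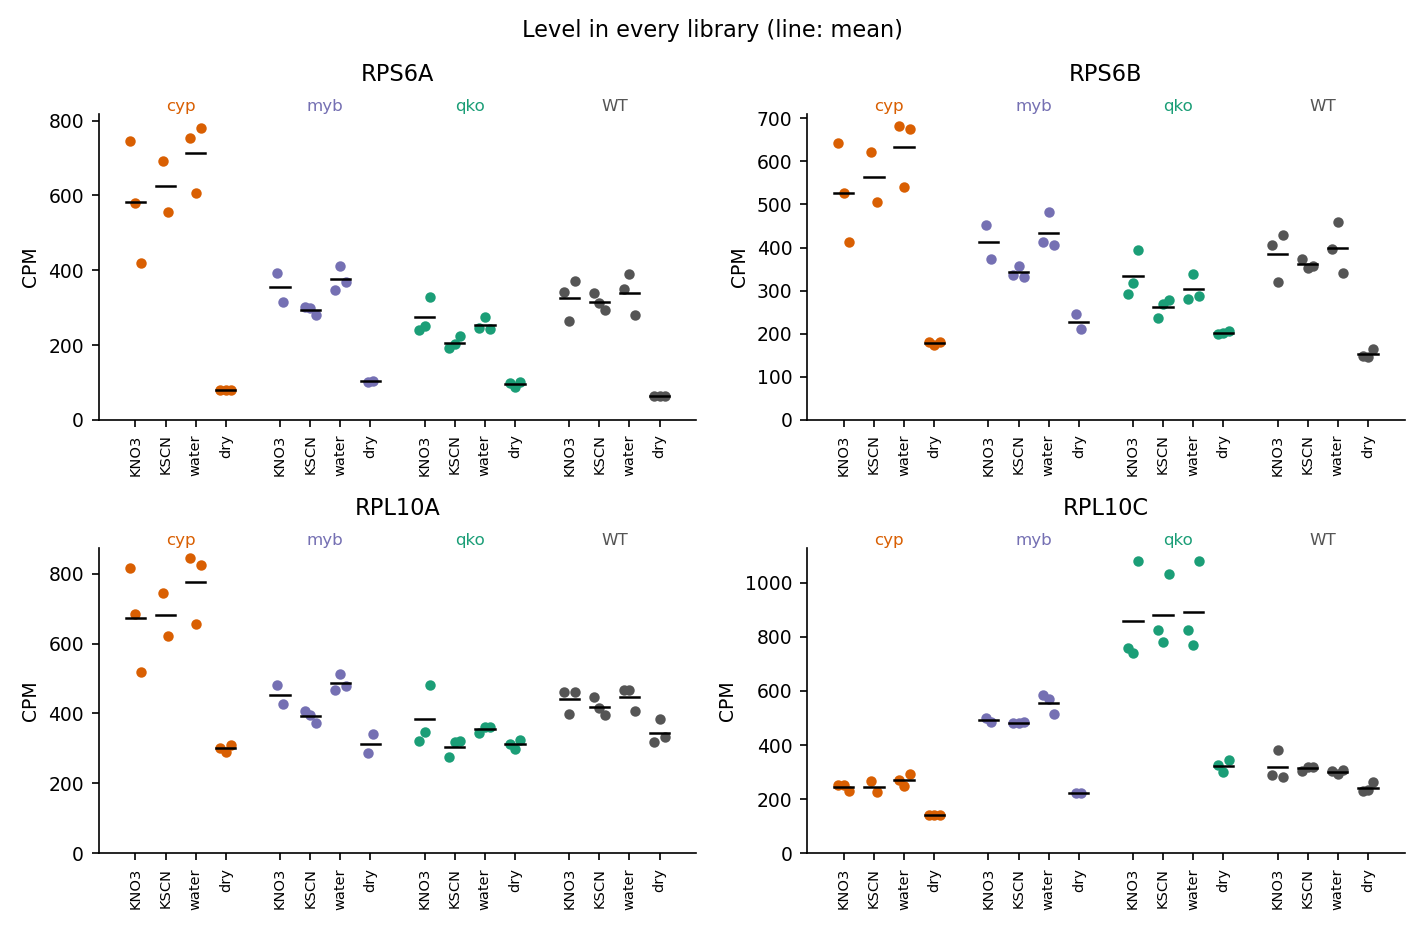
Level of RPS6A, RPS6B, RPL10A and RPL10C in CPM (vertical axes, from 0) in each library, by genotype and treatment (horizontal axes). Points are libraries and black lines group means. RPL10C stands highest in imbibed qko seeds, at 769 to 1081 CPM in water, whereas the other 3 genes stand highest in imbibed cyp seeds.

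Among imbibed seeds, most members were higher in cyp than in WT, and 19 of 55 were lower in qko. In cyp 53 of 55 were higher and none lower, with a median of 0.79, where 31.2% of all loci were higher and 31.9% lower (63.1%). The members not called there were RPL10C and AT2G45710, an RPS27 locus with a value of 0.21. RPS6A was higher by 1.07 ± 0.15, RPL24A by 1.15 ± 0.22 and AT3G13580, an RPL7 locus, by 1.28 ± 0.18. Every cyp library lay above every WT library for 53 of the 56 loci (36.3% of all loci). The summed level of 4 photosynthetic markers, none at 0 throughout, was 86.7 to 135 CPM in imbibed cyp, against 13.0 to 17.1 CPM in imbibed WT, and its part in the result was not tested. In myb 4 were higher and none lower, with a median of 0.18, where 17.9% of all loci were higher and 17.7% lower (35.6%). With only the compared groups in the fit, 9 were called in myb. The 4 were RPL10C, RPL16A (0.81 ± 0.23), AT3G13580 (0.50 ± 0.18) and RPSAb (0.49 ± 0.11). The call of AT3G13580 was lost without WT water replicate 5 or 9 or myb water replicate 6 or 7, at 0.39 to 0.52. In qko 2 were higher and 19 lower, with a median of -0.29, where 25.8% of all loci were higher and 24.9% lower (50.7%). The 19 lower are 34.5% of the members, while in either direction members were called less often than all loci. Of the 19, 5 belonged to the small and 14 to the large subunit. The 2 higher were RPL10C and RPSAb (0.47 ± 0.11), and RPSAA was lower (-0.38 ± 0.12). The lowest values among those called were -0.68 ± 0.15 for AT2G44120 (RPL7), -0.65 ± 0.22 for RPL24A and -0.62 ± 0.13 for AT3G09200. The qko count is 26 without replicate 7 in any treatment, but 2 higher and 8 lower without WT water replicate 8. RPL24A lost its call without WT water replicate 8 (-0.47) or qko water replicate 4 (-0.55). The summed level of 4 seed coat markers, 1 of them at 0, was 14.2 to 17.1 CPM in imbibed qko, against 7.22 to 8.89 CPM in imbibed WT, and its part was not tested. Of the 130 other ribosomal protein loci, 130 were higher in cyp, 7 in myb and 0 in qko, where 37 were lower.

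**Figure D4:**
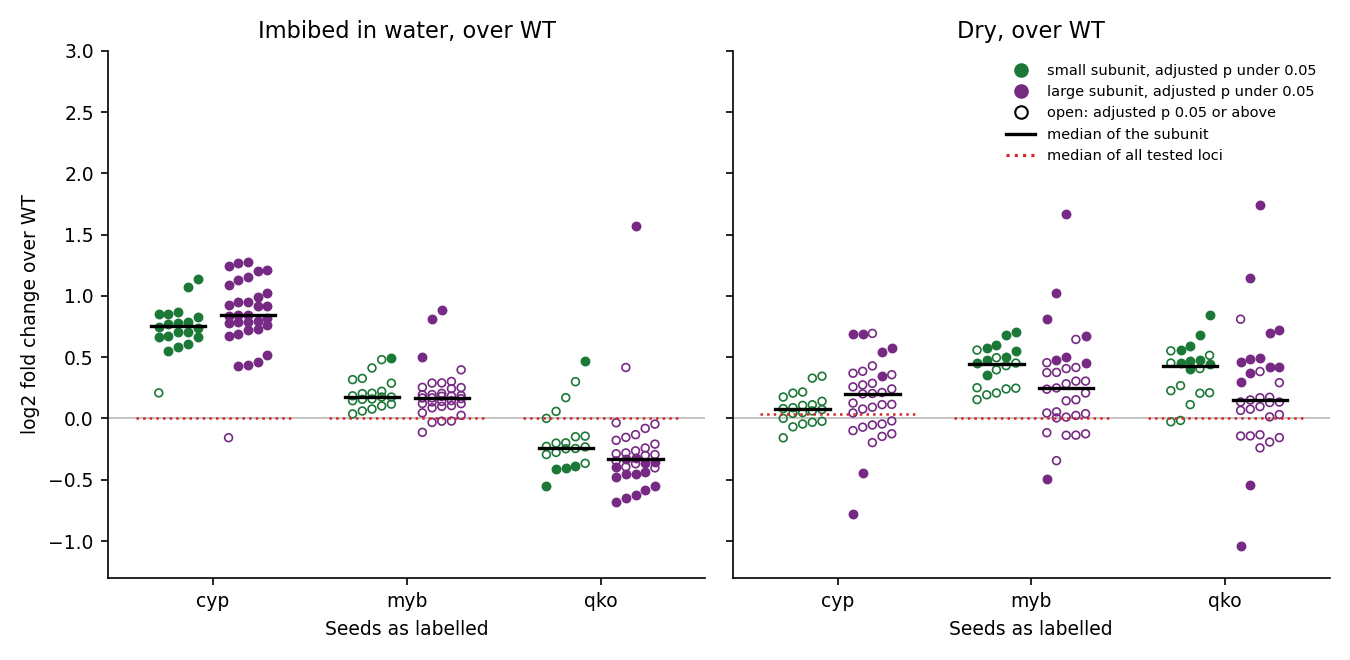
Log2 fold change over WT (vertical axes) of each tested ribosomal protein locus in imbibed seeds (left) and dry seeds (right) labelled cyp, myb and qko. Green is the small and purple the large subunit, filled where the adjusted p was under 0.05. Black lines are subunit medians and red dotted lines medians of all tested loci. Loci of 1 protein are not drawn. Imbibed cyp lies above 0 for nearly all loci, and the lone high point of imbibed qko, at 1.57, is RPL10C.

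The dry seeds differed in another pattern. Counting both directions in the fit over all groups, members were called less often than all loci in each mutant. The share called higher was 9.1% of members in cyp, 29.1% in myb and 38.2% in qko. In dry cyp 5 members were higher and 2 lower than in WT, with a median of 0.11, where 16.1% of all loci were higher and 13.4% lower (29.4%). With libraries scaled to their totals, 37 were higher and 1 lower, and with only the compared groups in the fit 24 were called. The 5 were AT3G13580 (0.69 ± 0.19), RPL3B (0.69 ± 0.24), AT4G10450, AT5G45775 and AT5G02870, all of the large subunit, and the 2 lower were RPL10C and AT3G09200. The count of 7 became 4 without WT dry replicate 8 and 4 without cyp dry replicate 9. RPL3B lost its call without WT dry replicate 8 or 9 or cyp dry replicate 8 or 9 (0.60 to 0.64), AT4G10450 without WT dry replicate 8 (0.53) and AT5G45775 without WT dry replicate 5 (0.497) or cyp dry replicate 9 (0.51). AT5G02870 lost it without any 1 of the 6 dry libraries (0.32 to 0.39). In dry myb 16 were higher and 1 lower, with a median of 0.33 and a background of 20.6% and 17.3% (38.0%), and in dry qko 21 were higher and 2 lower, with a median of 0.29 and a background of 25.4% and 23.5% (49.0%). Small subunit loci made up 9 of the 16 and 10 of the 21. The myb count of 17 became 11 without WT dry replicate 5, 7 without myb dry replicate 5 and 11 without myb dry replicate 9. It was 27, all higher, with libraries scaled to their totals, and 35 with only the compared groups in the fit. The qko count of 23 became 40 with only the compared groups and 15 with the replicate number as a block across genotypes. Of the members called, AT3G13580 had the highest log2 fold change over WT in dry cyp, myb and qko. It had 33.5, 31.5 and 33.9 CPM in dry cyp, 71.0 and 59.0 CPM in dry myb and 70.8, 62.4 and 71.6 CPM in dry qko, against 19.7, 21.1 and 20.4 CPM in dry WT. All libraries of the mutants lay above those of WT, and the log2 difference was 1.67 ± 0.21 in myb (adjusted p = 5.4e-08, edgeR) and 1.74 ± 0.19 in qko (adjusted p = 2.1e-09, edgeR). RPL16A was higher by 1.02 ± 0.26 in myb and 1.14 ± 0.23 in qko. AT3G09200 was the member called lower in all 3, at -0.44 ± 0.13 in cyp, -0.50 ± 0.15 in myb and -0.55 ± 0.13 in qko, although with libraries scaled to their totals it was -0.06 in cyp and -0.36 in myb and called in neither. In dry qko the RPL3 paralogues were called in opposite directions, RPL3B at -1.04 ± 0.29 and RPL3A at 0.70 ± 0.17. The pollen marker VGD1 moved with genotype in dry seeds, at 12.5 to 26.0 CPM in cyp, 90.7 to 104 CPM in myb and 49.7 to 143 CPM in qko, against 5.83 to 16.6 CPM in WT, and its part in these results was not tested. The summed level of 4 seed coat markers was 6.31 to 8.26 CPM in dry cyp, 8.82 to 9.88 CPM in dry myb and 10.3 to 12.2 CPM in dry qko, against 6.44 to 7.03 CPM in dry WT, with 1 marker at 0 in cyp and myb, 2 in qko and none in WT. The 6 storage and oil body transcripts were lower in all 3, with the dry values given above. The part of these markers was not tested either.

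The change on imbibition itself was compared between each mutant and WT by an interaction term. In cyp 43 members had a higher log2 change than in WT and none a lower one, with a median difference of 0.67, where 12.3% of all loci were higher and 22.8% lower (35.2%). The highest value of those called was that of RPL16A, 1.14 ± 0.33, and RPL10A (0.99 ± 0.19), RPSAb (0.98 ± 0.18) and the RPL38 loci AT2G43460 (0.95) and AT3G59540 (0.94) came next. The count was 24 without WT water replicate 9, 27 without cyp water replicate 9 and 47 without cyp replicate 8 in any treatment. AT2G43460 lost its call without cyp dry replicate 8 (0.755). In myb 1 was higher and 1 lower, against 5.39% and 6.14% of all loci (11.5%). These were RPL10C (1.01 ± 0.19) and AT3G13580 (-1.17 ± 0.28). In qko 1 was higher and 25 lower, with a median of -0.52, where 14.1% of all loci were higher and 13.6% lower (27.7%). The 25 comprised 11 small and 14 large subunit loci. RPL10C was again the higher one (1.15 ± 0.18). The lowest of those called were AT3G13580 (-1.79 ± 0.26), RPL10B (-1.21 ± 0.45), RPS15A (-1.14 ± 0.26), RPL3A (-1.14 ± 0.24) and RPL23AB (-1.12 ± 0.25), the last a paralogue of a protein at the tunnel exit. RPS6A (-1.01 ± 0.21) and RPS6B (-0.80 ± 0.19) were both among the 25. The qko count of 26 became 16 without WT water replicate 8 and 32 without qko replicate 7 in any treatment. RPL10B lost its call without replicate 4 or 7 of dry qko, replicate 4 or 6 of imbibed qko, replicate 8 or 9 of dry WT or replicate 5 or 8 of imbibed WT, at -1.26 to -1.06. These comparisons share the WT libraries.

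AT3G13580 combined both patterns. After imbibition it had 139.5, 107 and 166 CPM in cyp, 78.8, 88.95 and 73.4 CPM in myb and 57.4, 53.2 and 54.0 CPM in qko, against 54.6, 67.9 and 47.5 CPM in WT. Imbibed qko overlapped imbibed WT, where dry qko had stood above dry WT. Within its genotype AT3G13580 was higher after imbibition in cyp (2.06 ± 0.19) and WT (1.47 ± 0.19), and missed the threshold at 0.31 in myb and -0.32 in qko. With libraries scaled to their totals AT3G13580 was called higher in both, at 0.99 in myb and 0.41 in qko (adjusted p = 0.046, edgeR).

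Counts were also summed over the listed paralogues of each protein before the fit. Of 26 proteins, 26 were higher after imbibition in cyp, 25 in myb, 14 in qko and 26 in WT, and none was lower. Of all 18037 features of that fit, 40.8%, 34.8%, 36.9% and 37.1% were higher and 38.9%, 31.3%, 32.1% and 33.4% lower in the same order. Against WT in water, 26 were higher in cyp, 1 was higher in myb, and 1 was higher and 12 lower in qko. Of all features, 63.1%, 35.7% and 50.8% were called in either direction in the same order. The share of proteins called was thus near that of all features in qko, below it in myb and above it in cyp. In qko 25.8% of all features were higher and 25.0% lower, an almost even split, whereas 1 protein was higher and 12 were lower. In dry seeds 2 proteins were lower in cyp, 8 were higher and 1 lower in myb, and 9 were higher and 1 lower in qko, where 16.0%, 20.6% and 25.4% of all features were higher and 13.5%, 17.4% and 23.6% lower.

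Neither salt changed a ribosomal protein locus past the threshold. For KNO3 over water and KSCN over water, 0 of 55 members were called in each of the 4 genotypes by edgeR's quasi-likelihood test, and DESeq2 also called 0. Of all tested loci, 1.98% were called for KNO3 in cyp (1.14% higher and 0.841% lower) and 0.0% in the other 7 comparisons. At an unadjusted p under 0.05 the members numbered 10 of 55 in cyp for KNO3, where 16.2% of all loci passed, a share near that of the members. They numbered 0 in myb, qko and WT, where 1.61%, 3.08% and 2.03% of all loci passed. For KSCN they numbered 0 in cyp, 45 in myb, 5 in qko and 0 in WT, where 1.88%, 12.6%, 4.11% and 0.958% of all loci passed in the same order. The median log2 fold change for KNO3 was -0.25 in cyp, -0.12 in myb, 0.13 in qko and -0.01 in WT. For KSCN it was -0.16 in cyp, -0.37 in myb, -0.20 in qko and -0.10 in WT. Without qko replicate 7 in any treatment the qko medians were -0.03 for KNO3 and -0.26 for KSCN, with 0 members called for either, so the positive KNO3 median rested on that replicate. Leaving out 1 library at a time, the KNO3 median in WT lay between -0.10 and 0.07. With only the compared groups in the fit, 16 members were called lower in myb for KSCN. In the fit over all groups, all 55 members in myb had a lower fitted level in KSCN than in water, from -0.65 to -0.18, with a lowest adjusted p of 0.32 (edgeR). The fitted level in KSCN was also lower for 54 members in cyp, 55 in qko and 54 in WT. In KNO3 it was lower for 55 in cyp, 52 in myb, 2 in qko and 31 in WT. Every KSCN library of myb lay below every water library for 55 of the 56 loci, where 12.0% of all tested loci did so. In qko this held for 14 of the 56 loci, where it held for 2.88% of all tested loci, and in cyp and WT for 0. RPS6A had 301, 299 and 281 CPM in myb seeds in KSCN, against 348, 411 and 369 CPM in water. For KNO3 in cyp the count was 0, but 24 lower without cyp KNO3 replicate 6 and 2 lower without cyp water replicate 8. With the replicate numbers as a block, 22 were lower in cyp KNO3.

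**Figure D5:**
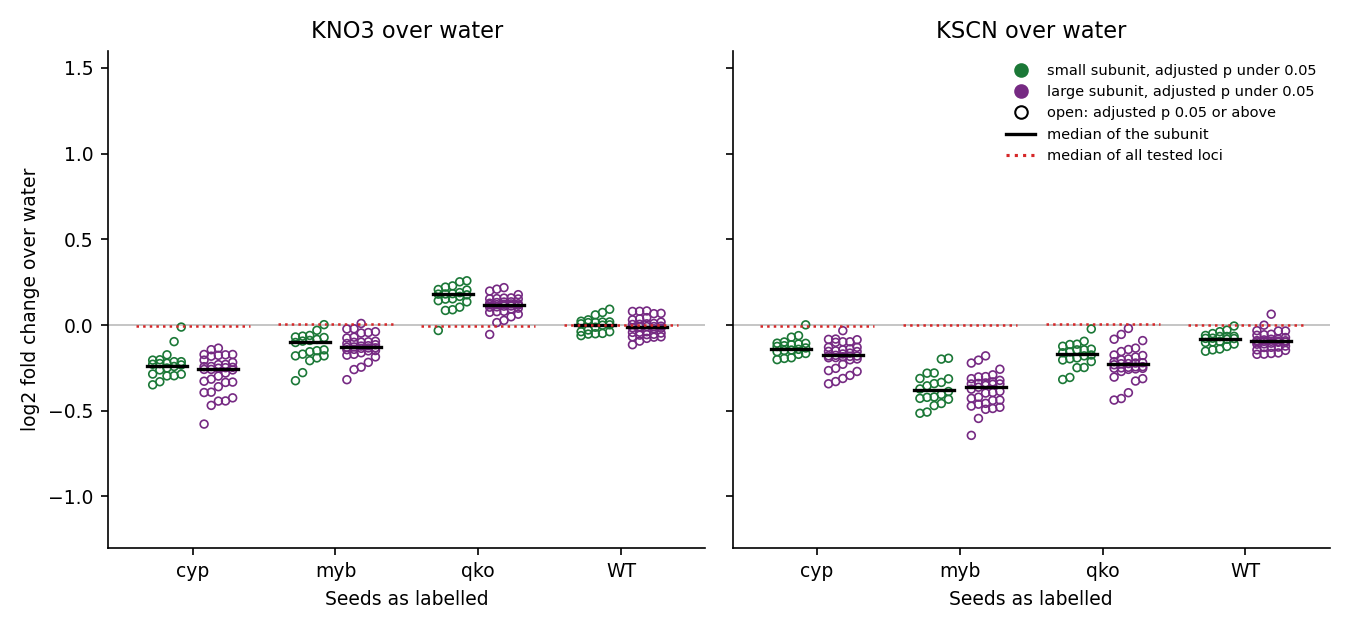
Log2 fold change over water (vertical axes) of each tested ribosomal protein locus in KNO3 (left) and KSCN (right), in seeds labelled cyp, myb, qko and WT. Green is the small and purple the large subunit, and open points mark an adjusted p of 0.05 or above, which holds for every point. Black lines are subunit medians and red dotted lines medians of all tested loci. Loci of 1 protein are not drawn. The myb points in KSCN lie between -0.64 and -0.18.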

How the data were processed

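The authors deposited 1 table of estimated counts per transcript for the 45 libraries, made with Salmon per the submitters' processing notes. The sources used here give neither its version nor the genome build and annotation. Paired-end cDNA reads came from total RNA, per the labels' protocols. Transcripts were summed per locus and rounded. Loci with low counts were removed (filterByExpr, minimum count 10, minimum total 15), leaving 18066. One edgeR 4.0.16 quasi-likelihood model with 16 groups and TMM scaling (R 4.3.3) gave 21 comparisons, adjusted by Benjamini-Hochberg and called at an adjusted p under 0.05. The standard error is the log2 fold change over the square root of F. The script was tested on simulated data. CPM used TMM-scaled totals, and lengths came from TAIR10.1 for 99.59% of transcripts. P-values measure the spread between libraries, which may be technical.

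In each comparison the text names from the 10 called members with the widest change, the 5 with the narrowest, the highest and lowest paralogue per protein, and paralogues called in opposite directions. RPS6A and RPS6B are always named. The members and lists were chosen with earlier results of these data known. Of 147 other ribosomal protein loci listed, 131 were kept, since the annotation describes them as such, and 130 were tested. Promoters and symbols came from RefSeq's TAIR10.1. Same-numbered imbibed qko libraries deviated together (correlations 0.338 to 0.562 for KNO3 with water and 0.371 to 0.625 for KSCN with water). The reported fit has no block and ignores any such pairing, which entered only through the block tried as an alternative. The labels do not say what a number stands for. DESeq2 1.42.0, other scalings, no filter, a block, only the compared groups and leaving out each library were tried. Loci of 1 protein are counted among the members but not reported here by themselves.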

Additional observations from a re-analysis of the deposited data

Results flagged for a closer look

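The change on imbibition differed between mutant and WT seeds by the interaction test (edgeR, Benjamini-Hochberg adjusted) for 43 of 55 members in cyp, all of them higher, where 35.2% of all loci were called. It differed for 2 in myb, RPL10C higher and AT3G13580 lower, where 11.5% of all loci were called. It differed for 26 in qko, 1 higher and 25 lower, where 27.7% of all loci were called.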

How the results depend on the processing

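Counts of members called were within 1.5 times those reported in most comparisons. With libraries scaled to their totals they became 54 for qko water over dry, 38 for cyp over WT dry and 27 for myb over WT dry, and 7 signs, water over dry, turned positive: RPL16A in WT (0.63) and myb (0.34), and AT5G35530 (0.62), RPS15A (0.58), RPL3A (0.54), RPS18C (0.52) and AT3G13580 (0.41) in qko. For cyp over WT dry 14 signs turned positive, and 0 to 5 signs changed in each other comparison. With only the compared groups in the fit, they became 24, 35 and 40 for cyp, myb and qko over WT dry, 9 for myb over WT water, 7 for the myb interaction and 16 for myb KSCN over water. The replicate block gave 22 for KNO3 over water in cyp, where the numbers do not all match, and 15 for qko over WT dry. In qko, where same-numbered imbibed libraries deviated together, it changed no call for KNO3 or KSCN. Leaving out 1 library gave 49 to 53 (WT), 55 (cyp), 42 to 49 (myb) and 29 to 36 (qko) for water over dry. It gave 4 to 6, 7 to 17 and 17 to 22 over WT in dry seeds, and 50 to 53, 3 to 5 and 10 to 26 over WT in water, for cyp, myb and qko. For the interactions it gave 24 to 48, 2 to 3 and 16 to 31, for KNO3 in cyp 0 to 24, and 0 for the other salt comparisons. Values of members picked by the naming rule were followed under all alternatives. Of these, 2822 stayed on their side of the threshold, 24 passed it anew and 77 no longer passed it. The sign of 3 reversed with a call in either fit (RPL16A in WT, AT5G35530 and RPS15A in qko, above). Uncalled values that changed sign are among the 2822. RPL3A, RPS18C and AT3G13580 in qko, also above, lay outside that rule and are not among the 3. Among paralogue shares 866 stayed on their side, 8 passed it anew and 14 no longer passed it, the 14 all of RPL10C. Low counts limit AT3G51190.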

Other observations

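Transcripts within a locus, looked at after their values were seen, set imbibed qko replicate 7 apart. For RPS6A, transcript AT4G31700.2 had 1720 to 2204 counts in the 3 imbibed libraries of that replicate, against 0 to 12 in the other 31 imbibed libraries and 0 in the 11 dry ones. For RPL3A, transcript AT1G43170.8 had 0 counts in those 3 libraries, against 4301 to 27364 in the other imbibed libraries and 1742 to 4989 in the dry ones. Among 26 members with several transcripts, the leading transcript was the same in qko replicates 4 and 6 for all 26 and differed in replicate 7 for 3 in water and for 4 in KNO3 and in KSCN.

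Members with a site II motif in the 250 upstream bases numbered 37 of the tested 55. Their median log2 fold change, water over dry, was 1.57 in cyp, 0.81 in myb, 0.43 in qko and 0.93 in WT. The 18 without the motif had medians of 2.08, 1.25, 0.75 and 1.44 in the same order. This is a description with no test.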
